A study of Homo sapiens with 11 samples.

Results

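TXNIP, the 4 alpha-arrestin genes ARRDC1, ARRDC2, ARRDC3 and ARRDC4, and the transcription factor genes MLXIP, MLXIPL and MLX were followed across 4 treatments of HEK293T, a cell line derived from human embryonic kidney that expresses large T antigen of the virus SV40. They were taken by symbol from a table of 27671 genes, and all 8 of the 8 symbols were found. The set was chosen by the log2 fold changes of TXNIP and ARRDC4, which were lower with A8 both without and with ISRIB, so the values of the genes in those comparisons are described here and not tested. All 8 were among the 15591 genes with enough counts to be tested.

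The groups were A8 at 10 µM (n = 3), the same dose of A8 together with ISRIB (n = 3), ISRIB with the vehicle DMSO (n = 2, called ISRIB alone) and DMSO (n = 3). A8 is a small molecule that the study's title ties to the RNA sensor RIG-I and the integrated stress response, and ISRIB is a compound that blunts that response by acting on the initiation factor eIF2B. The labels give no ISRIB dose, name the line HEK293T in one field and HEK293 in another, and state 8 h of treatment in the titles but 4 h in the treatment protocol. The submitters dropped replicate 2 of ISRIB alone for poor quality. The design text calls the replicates biological, so a p-value here measures the spread between cultures of 1 line.

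TXNIP, the thioredoxin-interacting protein, binds and restrains thioredoxin and helps to take glucose transporters off the cell surface. It is an alpha-arrestin, a family of adaptors that bring membrane proteins to ubiquitin ligases of the NEDD4 family, and ARRDC1 to ARRDC4 are its relatives. MondoA (encoded by MLXIP) and ChREBP (encoded by MLXIPL) each pair with MLX and bind DNA when sugar phosphates build up in the cell, and TXNIP and ARRDC4 are textbook targets of MondoA. The element they bind, the carbohydrate response element, is made of E-box-like half-sites placed a fixed distance apart.

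The promoters are shown because TXNIP and ARRDC4 moved together while ARRDC2 did not, and all 3 hold half-sites. Each line is the stretch of 250 bases before the first listed transcription start, from RefSeq on GRCh38.p14, read in the direction of the gene. Which start these cells use was not tested. Capitals mark every CACGNG half-site on either strand (CNCGTG on the printed strand). The TXNIP stretch is chr1:145996580-145996829 on the minus strand, the ARRDC4 stretch is chr15:97960453-97960702 on the plus strand, and the ARRDC2 stretch is chr19:18000874-18001123 on the plus strand.
TXNIP: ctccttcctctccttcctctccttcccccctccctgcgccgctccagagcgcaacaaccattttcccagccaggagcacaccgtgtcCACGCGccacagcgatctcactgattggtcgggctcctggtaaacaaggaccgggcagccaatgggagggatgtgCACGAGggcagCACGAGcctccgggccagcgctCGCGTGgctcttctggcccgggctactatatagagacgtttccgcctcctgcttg
ARRDC4: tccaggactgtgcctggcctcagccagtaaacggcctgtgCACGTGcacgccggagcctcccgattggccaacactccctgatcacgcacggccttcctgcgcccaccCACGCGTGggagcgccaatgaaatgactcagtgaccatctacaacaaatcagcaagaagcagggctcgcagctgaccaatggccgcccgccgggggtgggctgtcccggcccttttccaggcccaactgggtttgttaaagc
ARRDC2: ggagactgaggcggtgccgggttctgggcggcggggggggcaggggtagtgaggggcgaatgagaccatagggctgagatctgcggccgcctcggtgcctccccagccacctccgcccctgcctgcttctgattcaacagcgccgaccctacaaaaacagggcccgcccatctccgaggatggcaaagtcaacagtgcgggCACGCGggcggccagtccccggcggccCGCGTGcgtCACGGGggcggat

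Motifs were searched on both strands of the whole windows, which reach from 250 bases before to 50 after each start. The window of the first listed TXNIP start held 4 half-sites, beginning 163, 88, 77 and 55 bases upstream of that start. The middle ones form a pair 5 bases apart, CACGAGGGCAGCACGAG, which has the form of a carbohydrate response element. The ARRDC4 window held 3 half-sites, the full E-box CACGTG at 210 bases upstream and an overlapping set at 142 and 140 bases, and no pair at that spacing. ARRDC2 held 3 half-sites at 49, 22 and 13 bases upstream of its first listed start, also with no pair. Among 35116 RefSeq windows of the same length, 30.5% held a half-site, 7.26% held CACGTG, 0.0769% held a pair in any orientation and 0.057% held one with both half-sites in the same orientation, as in TXNIP.

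The other windows held less. MLX had CACGTG 50 bases upstream of its start, and ARRDC3 had a single half-site 193 bases upstream of its second listed start. No half-site was found in the windows of ARRDC1, MLXIP and MLXIPL, of the second starts of TXNIP and ARRDC2, or of the first start of ARRDC3. CCAAT boxes were found in every gene of the set except MLXIPL, at 140 and 105 bases upstream in TXNIP, at 187, 128 and 67 bases in ARRDC4 and once each in ARRDC1, the second start of ARRDC2, the first start of ARRDC3, MLXIP and MLX. Of all windows 34.6% held a CCAAT. A match says only that the letters are there.

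**Figure D1:**
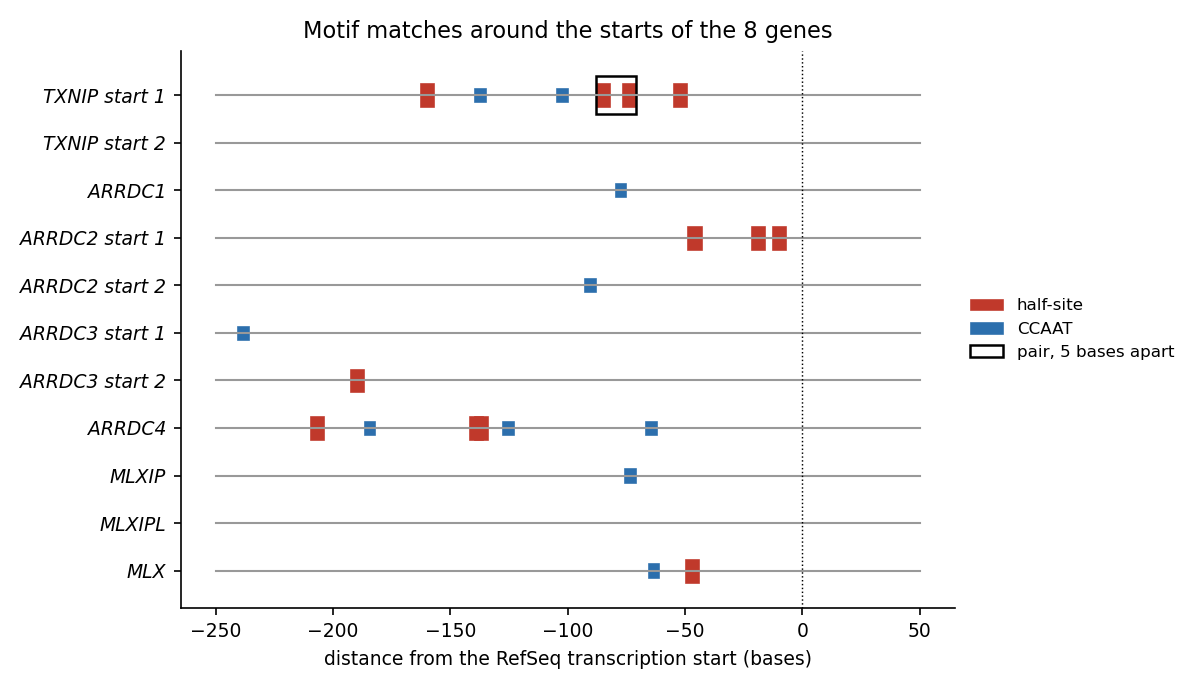
Each row is 1 RefSeq start of the 8 genes, drawn by distance in bases from the start (at 0), with red marks for half-sites (full E-boxes included), blue marks for CCAAT boxes and an open box for a pair of half-sites. The first listed TXNIP start is the row with a pair 5 bases apart, and the ARRDC4 mark 210 bases upstream is the E-box CACGTG.

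Libraries held 34072107 to 35318111 counts, with 17892 to 18017 genes detected in each, and 0 counts in the shallowest library would allow a level of up to 0.0880 CPM (counts relative to the library's size, here for a limit of 3 counts). This limit covers counting error only. All 9 of 9 markers of the kidney line were detected in every library, at a summed 904.5 to 1022 CPM. Of 11 markers of other cell types 3 to 6 were detected. Their summed level was 22.7 to 24.6 CPM with A8 and 22.1 to 25.5 CPM with A8 and ISRIB. It was 24.7 CPM in both libraries of ISRIB alone and 25.3 to 27.9 CPM in DMSO. PTPRC, CD3E, COL1A2 and PECAM1 were at 0 in all 11 libraries. COL1A1, CD68 and HBA1 were detected in every library, at 540 to 753, 152 to 209 and 31 to 63 counts. The source of these reads was not tested. The 10 most abundant genes took 10.1 to 11.7% of counts with A8, 10.1 to 12.8% with A8 and ISRIB, 9.07 to 10.7% in ISRIB alone and 8.47 to 10.4% in DMSO. The part of these shares in the results was not tested. As a check of the treatments, CHAC1, a glutathione-degrading enzyme induced by the integrated stress response, averaged 17.0 ± 3.7 CPM with A8, 4.11 ± 0.22 CPM with A8 and ISRIB, 2.67 ± 0.46 CPM in ISRIB alone and 5.22 ± 0.51 CPM in DMSO (SD).

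TXNIP was lower in every A8 library than in every library without A8, whether or not ISRIB was present. With A8 it stood at 4.93, 4.13 and 3.91 CPM, from 169, 148 and 133 counts, against 9.10, 10.4 and 8.97 CPM in DMSO, from 319, 369 and 315 counts. With A8 and ISRIB it stood at 2.98, 3.83 and 4.79 CPM, against 9.39 and 10.5 CPM in ISRIB alone. The 6 libraries with A8 lie below 5 CPM and the 5 without A8 lie above 8.9 CPM, so the groups do not overlap in either comparison.

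The TXNIP level with A8 was 45.6% of the DMSO level, a log2 fold change of −1.13 (SE 0.15). Under ISRIB it was 38.7% of the level in ISRIB alone, a log2 fold change of −1.37 (SE 0.17). Among the 10907 genes whose log2 CPM averaged 2 or more, 1 gene had a lower fold change than TXNIP in A8 against DMSO, and 0 genes had a lower one in A8 with ISRIB against ISRIB alone. TXNIP was chosen by these fold changes, so nothing is read from its rank. In bulk RNA, fewer cells with the transcript and less transcript per cell cannot be told apart.

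ARRDC4, an alpha-arrestin known like TXNIP to lower glucose uptake, moved the same way by a smaller step. With A8 it stood at 5.16, 5.80 and 5.36 CPM, from 177, 208 and 182 counts, against 9.07, 7.60 and 9.48 CPM in DMSO, from 318, 270 and 333 counts. With A8 and ISRIB it stood at 5.88, 4.91 and 6.01 CPM, against 10.3 and 9.53 CPM in ISRIB alone. Here too the groups do not overlap, and DMSO replicate 2 is the library without A8 that lies closest to those with it.

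The ARRDC4 level with A8 was 62.4% of the DMSO level, a log2 fold change of −0.68 (SE 0.12). Under ISRIB it was 56.5% of the level in ISRIB alone, a log2 fold change of −0.82 (SE 0.13). At the same minimum level, 5 genes had a lower fold change than ARRDC4 in A8 against DMSO, and 2 genes under ISRIB. ARRDC4 too was chosen by these fold changes, so nothing is read from its rank.

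**Figure D2:**
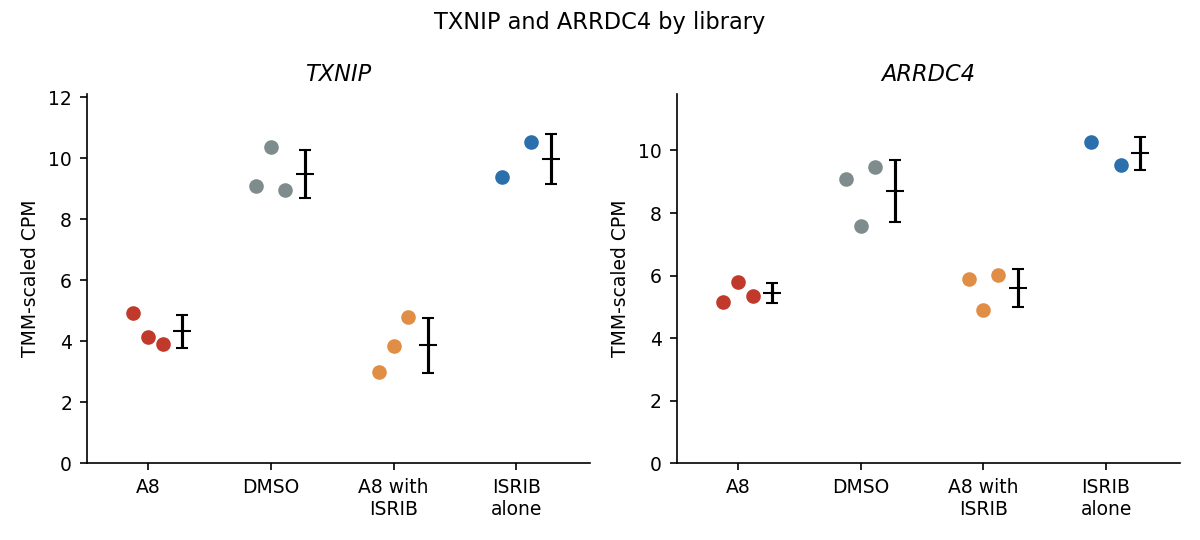
Points are single libraries, the bars beside them are group means with 1 SD to either side, and the vertical axis is CPM scaled by TMM factors, for TXNIP and ARRDC4 in each treatment group. The A8 libraries of TXNIP sit between 2.98 and 4.93 CPM, and the libraries without A8 between 8.97 and 10.5 CPM.

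The other 3 alpha-arrestins did not share this pattern. ARRDC1, which binds TSG101 and buds small vesicles from the cell surface, stood at 34.7, 33.1 and 32.0 CPM with A8, against 38.9, 34.4 and 36.8 CPM in DMSO. It stood at 33.1, 34.1 and 40.0 CPM with A8 and ISRIB, against 33.6 and 32.7 CPM in ISRIB alone. The groups overlap in both comparisons, with log2 fold changes of −0.14 (SE 0.08) and 0.11 (SE 0.09).

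ARRDC2, a less studied adaptor of the same family, stood at 8.16, 6.36 and 8.09 CPM with A8, against 7.45, 8.27 and 7.37 CPM in DMSO. It stood at 8.62, 8.82 and 8.39 CPM with A8 and ISRIB, against 6.73 and 6.77 CPM in ISRIB alone. The groups overlap without ISRIB (log2 fold change −0.03, SE 0.12), while under ISRIB each A8 library was higher (0.35, SE 0.13). ARRDC2 was thus the member whose libraries separated in the direction opposite to TXNIP under ISRIB.

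ARRDC3, an adaptor known for sorting beta-adrenergic receptors, was the least abundant member, with 72 to 131 counts per library. It stood at 2.48, 2.32 and 3.21 CPM with A8, against 2.28, 2.48 and 3.13 CPM in DMSO. It stood at 3.32, 3.72 and 2.25 CPM with A8 and ISRIB, against 2.11 and 3.61 CPM in ISRIB alone. All 4 groups overlap, and the log2 fold changes of 0.02 (SE 0.23) and 0.12 (SE 0.26) have the widest errors of the 8 genes.

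Between A8 and its control, without or with ISRIB, the transcripts of the MondoA factors differed by less than the spread between libraries. MLXIP, which encodes MondoA, stood at 100.5, 126.0 and 99.9 CPM with A8, against 102.2, 107.3 and 115.5 CPM in DMSO. It stood at 127.9, 107.9 and 105.3 CPM with A8 and ISRIB, against 107.5 and 106.2 CPM in ISRIB alone. The log2 fold changes were 0.01 (SE 0.09) and 0.09 (SE 0.10), and the DMSO libraries lie within the range of the A8 libraries.

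MLXIPL, which encodes ChREBP, stood at 8.34, 10.2 and 9.27 CPM with A8, against 9.67, 10.9 and 8.91 CPM in DMSO. It stood at 8.03, 8.59 and 8.08 CPM with A8 and ISRIB, against 7.97 and 8.28 CPM in ISRIB alone. Both comparisons overlap, with log2 fold changes of −0.08 (SE 0.11) and 0.02 (SE 0.13).

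MLX, the shared partner, stood at 47.0, 47.7 and 48.3 CPM with A8, against 49.1, 48.7 and 46.2 CPM in DMSO. It stood at 46.3, 48.3 and 51.1 CPM with A8 and ISRIB, against 38.6 and 52.3 CPM in ISRIB alone, whose libraries lie farther apart than those of any other group for this gene. The log2 fold changes were −0.01 (SE 0.09) and 0.09 (SE 0.10).

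**Figure D3:**
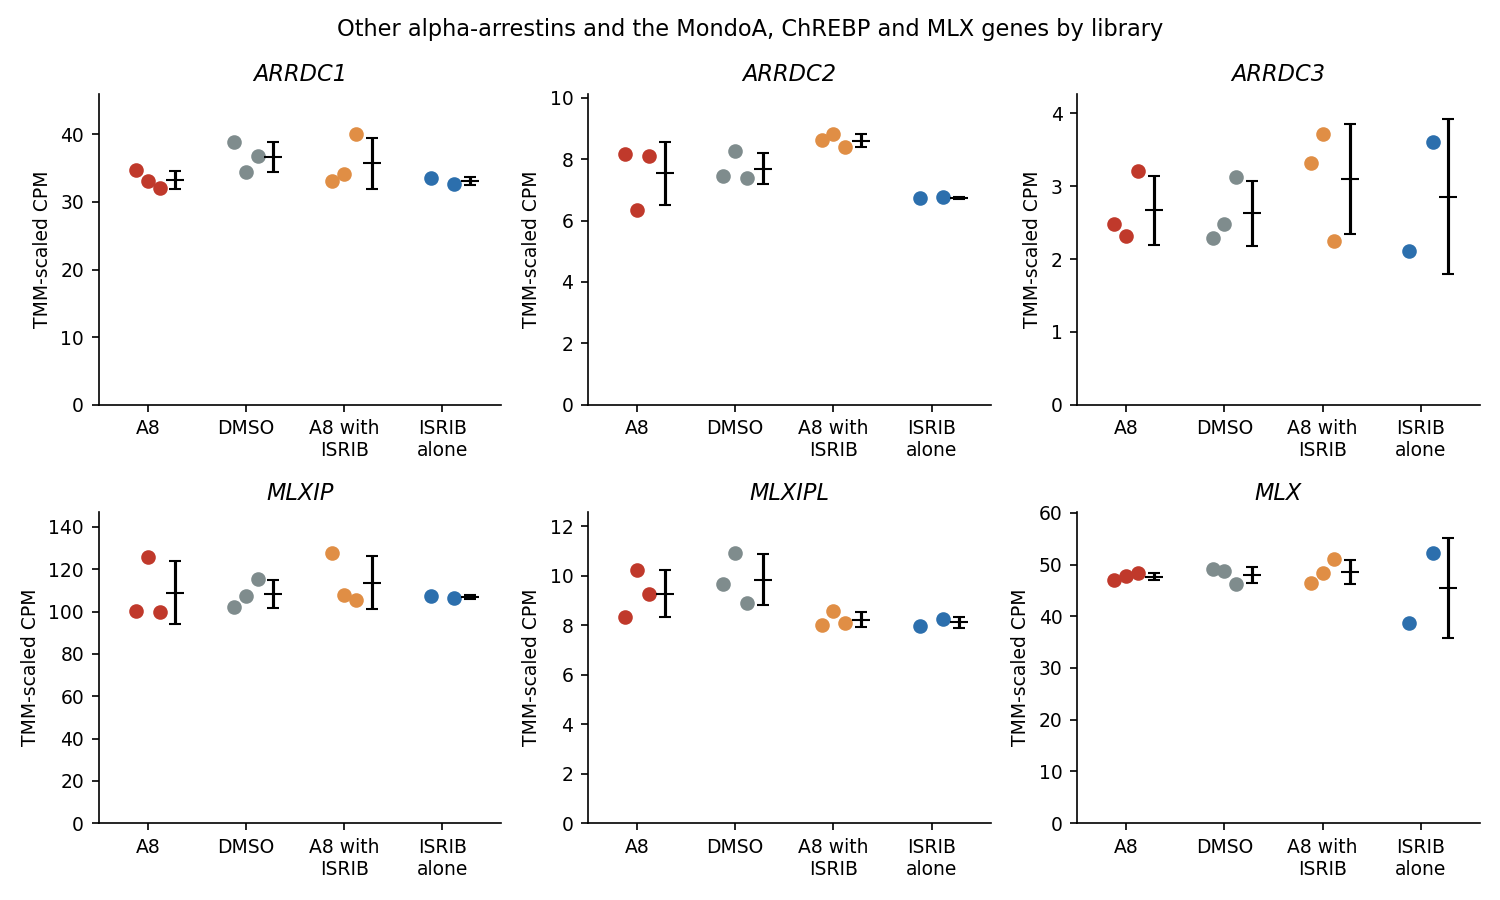
Points are single libraries and the bars beside them group means with 1 SD to either side, in CPM scaled by TMM factors, for the 6 genes other than TXNIP and ARRDC4. A8 overlaps its control, without and with ISRIB, except for ARRDC2 under ISRIB. There ARRDC2 with A8 and ISRIB (8.39 to 8.82 CPM) lies above ISRIB alone (6.73 and 6.77 CPM). ISRIB alone lies below DMSO for ARRDC1, ARRDC2 and MLXIPL, and A8 with ISRIB lies below DMSO for MLXIPL.

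By edgeR's quasi-likelihood test with Benjamini-Hochberg adjustment over 15591 genes (called at an adjusted p under 0.05), 2 of the 8 genes, TXNIP and ARRDC4, were called lower in A8 against DMSO, a call that 0.0577% of all genes tested received. TXNIP was in A8 with ISRIB against ISRIB alone the 1 gene called lower, both of the 8 and of all genes tested (0.00641%). None of the 8 was called higher, beside 0.0834% of all genes in A8 against DMSO and 0.00641% under ISRIB. Those comparisons chose the genes, so nothing is read from these counts. Leaving out 1 library at a time kept TXNIP called in 11 of 11 fits of A8 against DMSO and in 9 of 11 under ISRIB, where the call was lost without A8 with ISRIB 2 or ISRIB alone b (adjusted p up to 0.293). For ARRDC4 the call in A8 against DMSO was lost without A8 1, 2 or 3, ISRIB alone a or b, or DMSO 1 or 3 (adjusted p up to 0.202), while its log2 fold change stayed between −0.77 and −0.61.

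Counting libraries in place of calls, TXNIP and ARRDC4 were the 2 of 8 genes whose A8 libraries all lay below DMSO, as 8.13% of all genes tested did. Under ISRIB the same 2 genes lay wholly below, as 12.3% of all genes did, and ARRDC2 lay wholly above, as 12.8% did. The median log2 fold change of the 8 was −0.06 in A8 against DMSO and 0.09 in A8 with ISRIB against ISRIB alone, beside 0.01 and 0.00 over all genes tested. In the authors' deposited table for A8 against DMSO, TXNIP had a log2 fold change of −1.14 (adjusted p 2.34e-14) and ARRDC4 one of −0.68 (adjusted p 0.164). In the authors' deposited table for A8 with ISRIB against DMSO, TXNIP had −1.30 (adjusted p 8.11e-18) and ARRDC4 −0.64 (adjusted p 0.415). These DESeq2 values come from the same series that chose the genes, so they are no independent support.

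**Figure D4:**
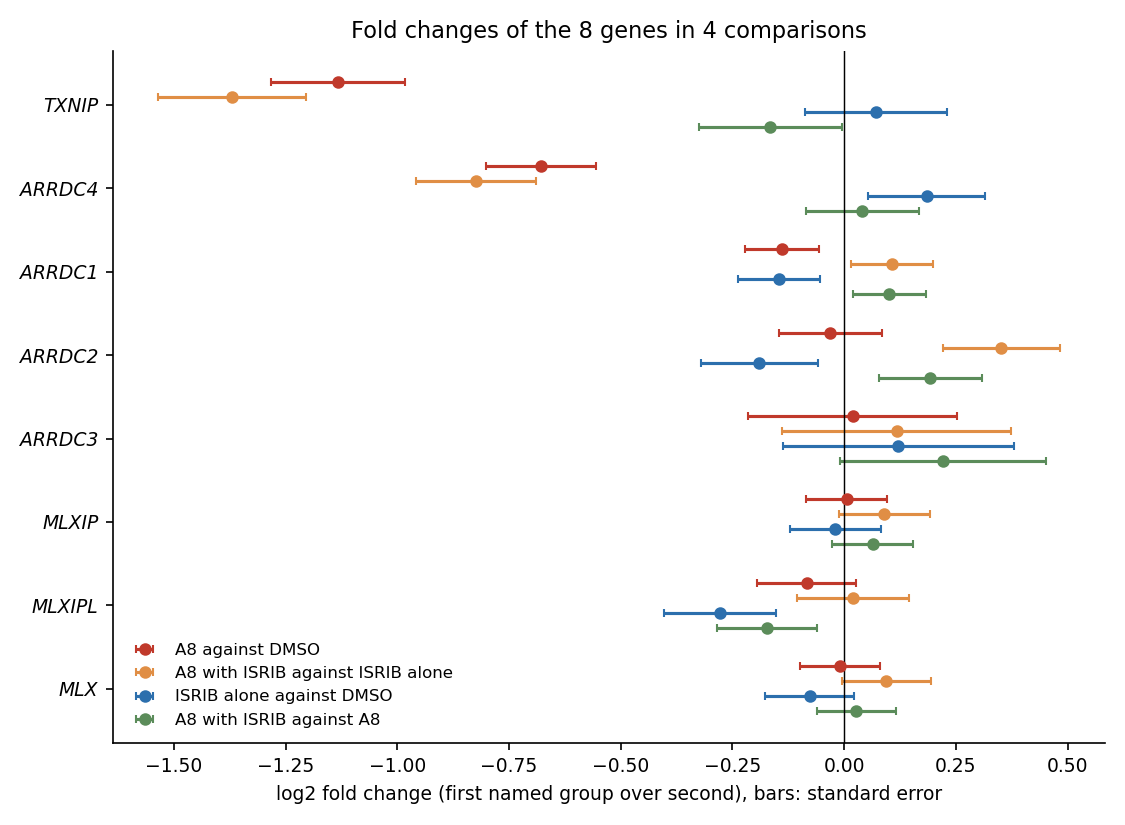
Log2 fold changes of the 8 genes with 1 SE to either side, by edgeR, in A8 against DMSO (red), A8 with ISRIB against ISRIB alone (orange), ISRIB alone against DMSO (blue) and A8 with ISRIB against A8 (green). TXNIP (−1.13 and −1.37) and ARRDC4 (−0.68 and −0.82) lie far left of 0 in both A8 comparisons, and the other genes lie between −0.28 and 0.35 in all 4.

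The effect of ISRIB on its own was not used to choose the genes and was tested. Both of its groups, however, are the references of the comparisons that chose TXNIP and ARRDC4. For these genes the values are described, and nothing is read from the lack of a call. By edgeR 0 of the 8 were called in ISRIB alone against DMSO, as were 0% of all genes tested, and 1 of the 8 had an unadjusted p under 0.05, beside 9.58% of all genes. DESeq2 gave an adjusted p to 3 of the 8 (ARRDC1, MLXIP and MLX) and called 0 of them, beside 0.391% of all genes with one. TXNIP, ARRDC4 and the other 3 got no adjusted p and could not be called by it. TXNIP differed by 0.07 on the log2 scale (95% interval −0.26 to 0.41, adjusted p 0.908) and ARRDC4 by 0.18 (−0.09 to 0.46, adjusted p 0.668). The widest shift was that of MLXIPL at −0.28 (−0.54 to −0.01, adjusted p 0.508). The libraries of ISRIB alone lay wholly below DMSO for ARRDC1, ARRDC2 and MLXIPL and wholly above for ARRDC4. That is 4 of 8 genes without overlap, beside 29% of all genes in this comparison of 2 with 3 libraries.

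Adding ISRIB to A8 is described next. TXNIP and ARRDC4 were chosen for being low in both of these groups, which favours a small difference between them. Nothing is therefore read from the lack of a call for these genes. None of the 8 was called in A8 with ISRIB against A8, where edgeR called 0.18% of all genes. DESeq2 called 0 of the 8, beside 0.355% of the genes to which it gave an adjusted p. By edgeR 0 had an unadjusted p under 0.05, beside 5.91% of all genes. TXNIP differed by −0.17 (95% interval −0.50 to 0.17, adjusted p 0.950) and ARRDC4 by 0.04 (−0.23 to 0.31, adjusted p 0.993). CHAC1 differed by −2.05 in the same comparison, and ASNS, the asparagine synthetase gene of the stress response, by −0.78. In ISRIB alone against DMSO they differed by −0.97 and −0.22. In A8 with ISRIB against ISRIB alone, CHAC1 differed by 0.62 (95% interval 0.21 to 1.03) and ASNS by 0.14 (−0.01 to 0.30). Neither was called there by edgeR (adjusted p 0.414 and 0.631). ARRDC2 was the 1 gene of the 8 whose libraries did not overlap, all higher with ISRIB added (0.19, −0.05 to 0.44, adjusted p 0.902), beside 5.09% of all genes.

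The interaction is the fold change of A8 under ISRIB minus that without it. Both terms were used to choose the genes, so it is described with no test and nothing is read from its calls. It was −0.24 for TXNIP (95% interval −0.71 to 0.24), −0.14 for ARRDC4 (−0.53 to 0.24) and 0.38 for ARRDC2 (0.01 to 0.75). By edgeR 0 of the 8 genes were called, beside 0.0257% of all genes, and 1 had an unadjusted p under 0.05, beside 8.48%. DESeq2 called 0 of the 7 genes to which it gave an adjusted p (ARRDC3 had none), beside 0.335% of all genes with one. The TXNIP and ARRDC4 intervals leave room for a sizeable difference, so like effects without and with ISRIB were not shown.

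**Figure D5:**
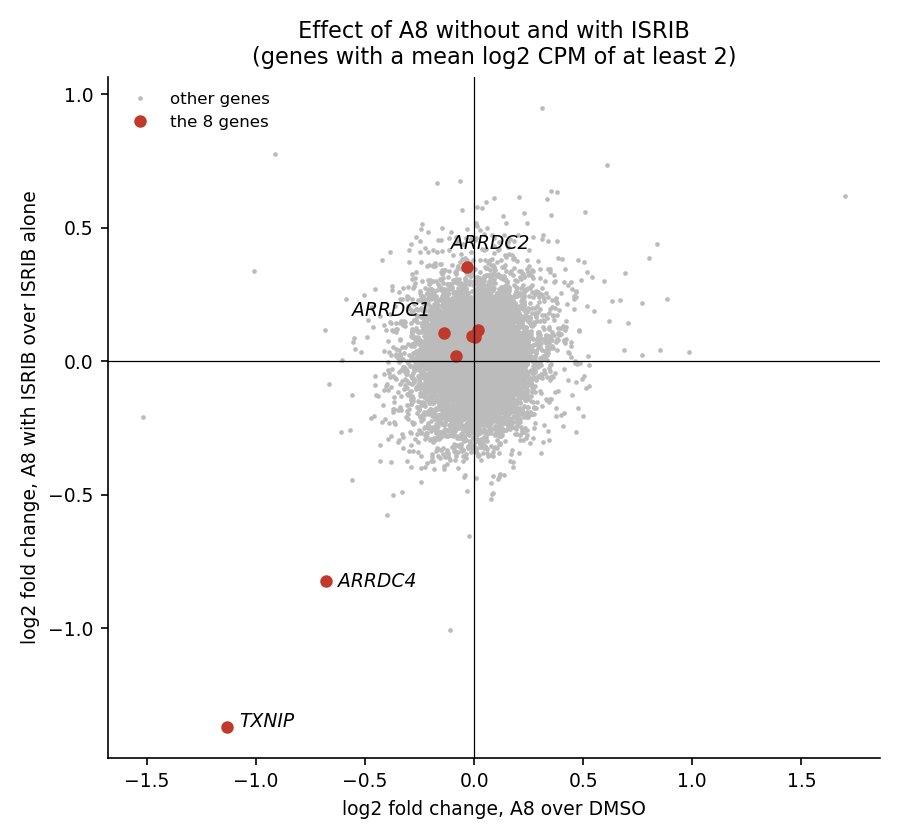
Each grey point is 1 of the 10907 genes whose log2 CPM averaged 2 or more, with its log2 fold change in A8 against DMSO on the horizontal axis and in A8 with ISRIB against ISRIB alone on the vertical axis. The coloured points are the 8 genes, of which TXNIP (−1.13, −1.37) and ARRDC4 (−0.68, −0.82) lie toward the lower left.

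Set against DMSO, A8 with ISRIB shares its libraries with the comparisons that chose the genes, so it is described and nothing is read from its calls. TXNIP differed by −1.30 (SE 0.15), ARRDC4 by −0.64 (SE 0.12) and MLXIPL by −0.26 (SE 0.11). Libraries of these 3 genes lay wholly below DMSO, beside 6.57% of all genes, and those of ARRDC2 wholly above (0.16), beside 5.79%. By edgeR TXNIP was the 1 of 8 genes called lower, beside 0.0192% of all genes.

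Levels can be set against each other only per length, here as CPM per kilobase of exon from the GENCODE v29 basic annotation. In DMSO the order was ARRDC1 at 23.1 ± 1.4, MLX at 18.5 ± 0.6 and MLXIP at 11.5 ± 0.7, then TXNIP at 2.95 ± 0.24, MLXIPL at 2.76 ± 0.29, ARRDC2 at 2.61 ± 0.17 and ARRDC4 at 2.14 ± 0.24, and last ARRDC3 at 0.628 ± 0.106 (SD, n = 3). The libraries of TXNIP, MLXIPL and ARRDC2 overlap, so that their order is not resolved, while those of ARRDC4 lie below all 3. With A8, TXNIP stood at 1.35 ± 0.17 and ARRDC4 at 1.34 ± 0.08 (SD, n = 3), below MLXIPL at 2.60 and ARRDC2 at 2.56 and above ARRDC3 at 0.637. TXNIP thus ranked above MLXIPL and ARRDC2 by its mean in DMSO and below them with A8, where it overlapped ARRDC4.

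MLX shares exon sequence with PSMC3IP on the opposite strand, and PSMC3IP had 1103 to 1304 counts per library. ARRDC1 and ARRDC2 overlap less studied transcripts that were not used here. The libraries were strand-specific, but the strand setting of the counting is not given in the sources used here, so the MLX, ARRDC1 and ARRDC2 levels are uncertain to that extent. A transcript that shares exon sequence with ARRDC1 lies on the same strand, so no strand setting would separate it from ARRDC1. ARRDC3 and MLXIPL overlap other genes but share no exon sequence with them. For ARRDC3 this is ARRDC3-AS1 on the opposite strand, with 16 to 47 counts per library. TXNIP, ARRDC4 and MLXIP overlap no other gene in the GENCODE v29 basic annotation.

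The wider pathway was described with 6 lists of 68 genes, all 68 in the table and 60 of them tested. By edgeR 0 of the 60 were called in any of the 6 comparisons. At an unadjusted p under 0.05 there were 8 in A8 against DMSO and 3 in A8 with ISRIB against ISRIB alone, beside 10.2% and 8.32% of all genes. DESeq2 called 3 of the 57 to which it gave an adjusted p in A8 against DMSO, namely KLF10, SRXN1 and TSG101, beside 0.849% of all genes with one. Under ISRIB it called 0 of the 54 with an adjusted p, beside 0.396% of all genes with one. The median log2 fold change of the 60 was 0.00 in A8 against DMSO and 0.01 under ISRIB, beside 0.01 and 0.00 over all genes tested.

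Among 15 tested glucose-responsive targets of MondoA or ChREBP, the median log2 fold change was −0.00 in A8 against DMSO and 0.02 under ISRIB. The lowest in A8 against DMSO was KHK, ketohexokinase, at −0.29, and the highest was the hormone gene FGF21 at 0.54, which had 0 to 10 counts per library. Under ISRIB the lowest was the fatty acid elongase ELOVL6 at −0.23 and the highest FGF21 at 0.70. KLF10, a glucose-responsive repressor called by DESeq2, averaged 32.3 ± 2.2 CPM with A8 and 25.4 ± 2.2 CPM in DMSO (SD, n = 3 each). Its log2 fold change was 0.35 (edgeR adjusted p 0.161). Its direction was opposite to that of TXNIP, also under ISRIB, where it averaged 32.4 ± 2.5 CPM with A8 (n = 3) and 25.7 ± 0.0 CPM in ISRIB alone (n = 2).

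In the thioredoxin system, 16 of 16 genes were tested, with medians of −0.04 and −0.01. The lowest in A8 against DMSO was SRXN1, sulfiredoxin, at −0.41 (edgeR adjusted p 0.103), and the highest was the reductase TXNRD3 at 0.30. Under ISRIB the lowest was the glutaredoxin GLRX at −0.39 and the highest the peroxiredoxin PRDX2 at 0.14. TXN, the thioredoxin that TXNIP binds, differed by 0.05 and −0.02.

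Of the glucose transporters 8 of 10 were tested, with medians of −0.01 and 0.13. In A8 against DMSO they ran from SLC2A6 at −0.34 to SLC2A3 at 0.49, and under ISRIB from SLC2A12 at −0.27 to SLC2A3 at 0.51. SLC2A3 had 9 to 46 counts per library, and its changes had SEs of 0.37 and 0.49. SLC2A1, the main transporter of most cell lines and a cargo of TXNIP, differed by −0.13 and −0.14 (edgeR adjusted p 0.538 and 0.638).

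The list of 10 genes made of NEDD4-family ligases and TSG101, an ESCRT subunit that ARRDC1 binds, had medians of 0.06 and −0.02. In A8 against DMSO they ran from the ligase WWP2 at −0.09 to TSG101 at 0.23 (edgeR adjusted p 0.158), and under ISRIB from HECW1 at −0.11 to SMURF1 at 0.07. The 9 genes of the MYC, MAX and MLX network had medians of −0.01 and 0.04, from MYCN at −0.19 to MXD1 at 0.29 in A8 against DMSO, and from MYCN at −1.41 to MYC at 0.23 under ISRIB. MYCN had 0 to 17 counts per library, and its change under ISRIB had an SE of 0.77. Of 5 other arrestins, the beta-arrestins ARRB1 and ARRB2 were tested (0.14 and 0.04 in A8 against DMSO, −0.09 and 0.07 under ISRIB), and ARRDC5 had 0 counts in every library.

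In the other 4 comparisons the 60 pathway genes ran from FGF21 at −2.28 to HECW1 at 0.53 in ISRIB alone against DMSO and from FGF21 at −2.12 to SRXN1 at 0.32 in A8 with ISRIB against A8. They ran from MYCN at −1.22 to SLC2A6 at 0.49 in the interaction, and from FGF21 at −1.58 to HECW1 at 0.42 in A8 with ISRIB against DMSO. Unadjusted p-values under 0.05 numbered 6, 3, 4 and 5 in these comparisons, beside 9.58%, 5.91%, 8.48% and 7.7% of all genes.

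The genes whose levels over the 4 group means were most like TXNIP were sought among those 10907 genes by the root-mean-square difference of centred log2 CPM. The nearest was ARRDC4 at 0.267, followed by TRNF, a mitochondrial transfer RNA gene, at 0.380 and MAP2K6, a kinase of the p38 pathway, at 0.383. Both TXNIP and ARRDC4 were chosen for falling in these same groups, so nothing is read from their nearness. TNFRSF10D, a decoy receptor for TRAIL, stood at 0.409, and GPRC5B, an orphan receptor, at 0.423. For ARRDC4 the nearest were MAP2K6 at 0.129, TRNF at 0.145, TNFRSF10D at 0.163, GPRC5B at 0.175 and the splicing factor SRSF11 at 0.189.

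These neighbours had smaller changes than either gene. MAP2K6 differed by −0.40 in A8 against DMSO and −0.58 under ISRIB, and TRNF by −0.56 and −0.44. TNFRSF10D differed by −0.37 and −0.50, GPRC5B by −0.33 and −0.49, and SRSF11 by −0.38 and −0.38. Likeness over 4 group means is a description of these libraries, and with distances over the 11 libraries 3 of the 5 genes nearest TXNIP and 4 of the 5 nearest ARRDC4 were the same.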

How the data were processed

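Polyadenylated RNA was sequenced as strand-specific DNBSEQ libraries, per the labels' protocols. The deposited table holds whole-number read counts per gene symbol for 11 libraries. GRCh37, DESeq and DESeq2 are named in the submitters' processing notes, while the names of aligner, counter and annotation were not given in the sources used here. The authors' deposited comparison tables hold, per the file headers, DESeq2 mean normalised counts (a signal), log2 fold changes with standard errors, a Wald statistic (a score), and p-values with adjusted p-values. Which libraries entered those fits is not given in the sources used here.

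Counts were fitted with edgeR 4.0.16 in R 4.3.3 (TMM, filterByExpr, glmQLFit, all 11 libraries as group means), with Benjamini-Hochberg adjustment over 15591 genes, for 6 comparisons. The 2 columns of ISRIB alone are numbered 1 and 2 and its samples 1 and 3, so these columns have a group but no sample and are written a and b. CPM values are scaled by TMM factors. The fit was tested on simulated data. Standard errors were taken from the fold change and its F statistic. Alternatives were the test and the size factors of DESeq2 1.42.0, other filters, fewer groups, a replicate block and leaving out each library. Same-numbered samples did not deviate together (correlations from −0.133 to 0.138), so numbers were not taken as pairs.

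The 8 genes and the 6 lists were chosen with earlier results of these data known. Of each list, the genes named are those called or, with none called, the lowest and highest fold change, given by list for both A8 comparisons and over all lists for the other 4. The 5 genes nearest in pattern to TXNIP and ARRDC4 are named too. TSG101, SRXN1 and KLF10 as DESeq2 calls, and TXN, SLC2A1 and ARRDC5 for their roles, were named after their values were seen. Gene lengths come from GENCODE v29 on GRCh38, not the build of the counts.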

Additional observations from a re-analysis of the deposited data

How the results depend on the processing

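TXNIP kept its direction and its call in A8 against DMSO under every alternative run (log2 fold change −1.24 to −1.06). Of the 8 genes, the number called in A8 against DMSO was 2, and 1 when only the groups compared were fitted or with the replicate block; leaving out 1 library gave 1 to 2. For A8 with ISRIB against ISRIB alone it was 1, and 2 with DESeq2, with no filter or with a minimum of 50 counts; leaving out 1 library gave 0 to 2. For A8 with ISRIB against DMSO it was 1, then 2 with DESeq2 or no filter and 0 with only the groups compared or the replicate block; leaving out 1 library gave 0 to 1, with 0 without A8 with ISRIB 2. TXNIP and ARRDC4 were chosen by the A8 comparisons, and the alternatives refit the same libraries, so nothing is read from these calls. The cause of these shifts was not tested. The replicate numbers were not taken as pairs, though correlations from so few samples cannot exclude a pairing. The block was not possible for comparisons with ISRIB alone. With 1 library of ISRIB alone left out, the lone sample is assumed to vary like the other groups.

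Values near 0 with no call changed sign when 1 library was left out. Over the alternatives, A8 against DMSO gave −0.092 to 0.078 for ARRDC2, −0.13 to 0.16 for ARRDC3, −0.11 to 0.065 for MLXIP and −0.036 to 0.0076 for MLX. Under ISRIB it gave −0.22 to 0.56 for ARRDC3, −0.0037 to 0.14 for MLXIP, −0.012 to 0.047 for MLXIPL and −0.11 to 0.33 for MLX, and A8 with ISRIB against DMSO gave −0.13 to 0.014 for ARRDC1, −0.024 to 0.12 for MLXIP and −0.018 to 0.051 for MLX. In ISRIB alone against DMSO the ranges were −0.015 to 0.15 for TXNIP (negative without ISRIB alone b), −0.32 to 0.46 for ARRDC3 (negative without ISRIB alone b), −0.060 to 0.028 for MLXIP (positive without DMSO 3) and −0.31 to 0.13 for MLX (positive without ISRIB alone a). In A8 with ISRIB against A8 they were −0.012 to 0.13 for ARRDC4 (negative without A8 with ISRIB 3), −0.030 to 0.18 for MLXIP (without A8 with ISRIB 1) and −0.010 to 0.060 for MLX (without A8 with ISRIB 3). The interaction gave −0.24 to 0.54 for ARRDC3 (negative without A8 with ISRIB 2, ISRIB alone a or DMSO 3), −0.0098 to 0.20 for MLXIP (without A8 with ISRIB 1) and −0.10 to 0.34 for MLX (without ISRIB alone a).

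Over all genes tested, higher and lower calls in A8 against DMSO were 13 and 9 with edgeR, 59 and 58 with DESeq2, 59 and 45 with no filter, and 11 and 4 with the replicate block. For A8 with ISRIB against ISRIB alone they were 1 and 1, against 38 and 13 with DESeq2, 28 and 13 with no filter, 4 and 2 with a minimum of 50 counts and 0 and 1 with only the groups compared. In ISRIB alone against DMSO they were 0 and 0, against 2 and 33, 3 and 11, and 1 and 2 with DESeq2, no filter and only the groups compared. In A8 with ISRIB against A8 they were 3 and 25, against 9 and 41 with DESeq2, 13 and 41 with no filter and 2 and 13 with the block. In the interaction they were 2 and 2, against 28 and 8 with DESeq2, 18 and 8 with no filter and 2 and 1 with a minimum of 50 counts. In A8 with ISRIB against DMSO they were 0 and 3, against 6 and 16 with DESeq2, 22 and 18 with no filter and 0 and 0 with only the groups compared or the block. ARRDC3 had the fewest counts of the 8, at 72 to 131 per library, and the part of depth in its errors was not tested.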

Other observations

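A pair of half-sites 5 bases apart, in any orientation, was found near the start of 27 genes in the RefSeq windows, matched to the counts by symbol. The arrangement of TXNIP, with both half-sites in the same orientation, was held by 20 windows, and the values here cover all 27 genes. Besides TXNIP, 16 of them were tested. Their median log2 fold change was −0.00 in A8 against DMSO (range −0.26 to 0.26) and −0.01 in A8 with ISRIB against ISRIB alone (range −0.12 to 0.46), and 0 were called by edgeR in either. They include GFPT1, the entry enzyme of the hexosamine pathway (0.10 and 0.10), the repressor HES1 (0.13 and 0.08), P4HA1, a collagen prolyl hydroxylase subunit (0.08 and −0.12), and the nuclear transport GTPase RAN (−0.07 and −0.01). PKLR, the liver pyruvate kinase gene in which the element is well known, was too low to test. The genes named here were chosen after their values were seen.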
